A study of Homo sapiens with 6 samples.

Results

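The transcripts of β-catenin, of the proteins that mark it for degradation and of the TCF/LEF factors it works with were followed in HCT116 cells, a human colon carcinoma line, with and without *ZKSCAN3*. The 10 genes were taken from the count table by their symbols: *CTNNB1*, *APC*, *AXIN1*, *GSK3A*, *GSK3B*, *CSNK1A1*, *BTRC*, *TCF7L2*, *TCF7* and *LEF1*. They are 10 of 46427 genes in the table. Parental HCT116 cells with wild-type *ZKSCAN3* (*ZK3*-WT) and *ZKSCAN3* knockout HCT116 cells (*ZK3*-KO) were each sequenced as 3 biological replicates from polyadenylated RNA. Both were grown in DMEM with fetal bovine serum. In *ZK3*-KO cells the start codon of *ZKSCAN3* had been targeted by CRISPR/Cas9 on both alleles, and the line came from single-cell selection under puromycin, so the knockout and the history of a selected clone cannot be told apart.

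β-catenin, the product of *CTNNB1*, is made continuously and destroyed continuously in cells without a WNT signal. The scaffolds APC and Axin hold it while casein kinase 1α (*CSNK1A1*) and then the GSK3 kinases phosphorylate its amino-terminal end, and the F-box protein β-TrCP (*BTRC*) then passes it to the proteasome. β-catenin that escapes binds TCF/LEF proteins on DNA and turns their target genes on, and in colon cancer this escape is usually caused by mutation of *APC* or of *CTNNB1* itself. HCT116 cells are known for a heterozygous activating mutation in this stretch of *CTNNB1* and an intact *APC*, neither of which is visible in a count per gene. The reference stretch that carries the phosphorylation sites lies in exon 3 of *CTNNB1*, codons 29 to 50, at chr3:41266088-41266153 of GRCh37 on the forward strand. It is shown because it is where *CSNK1A1*, *GSK3A*, *GSK3B* and *BTRC* act on their shared substrate. The capitals mark codon 45, which casein kinase 1α phosphorylates first, and codons 41, 37 and 33, which the GSK3 kinases phosphorylate afterwards.
CTNNB1 exon 3: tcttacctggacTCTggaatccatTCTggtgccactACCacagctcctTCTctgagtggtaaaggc

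Between 60827060 and 69739215 reads were counted per library. *ZK3*-KO replicate 3 stood apart from the other *ZK3*-KO libraries, with correlations of log2 CPM across genes of 0.961 and 0.973, against 0.99 or more between all other replicates of a genotype. Values are counts scaled to library size after TMM normalization (CPM) unless another unit is named, those of a genotype are listed in the order of its replicates 1, 2 and 3, and changes are log2 fold changes of *ZK3*-KO over *ZK3*-WT from edgeR's quasi-likelihood test with FDR over 18366 tested genes. *ZKSCAN3* itself was counted at 19.8 to 28.1 CPM in *ZK3*-WT and 13.6 to 25.4 CPM in *ZK3*-KO libraries (log2 fold change -0.16, FDR 0.797 in edgeR's test), so its reads did not separate the genotypes. Of 10 markers of colon epithelium, *EPCAM*, *KRT8*, *KRT18*, *KRT19*, *CDH1* and *CDX2* were counted at 13.8 CPM or more in every library, whereas *KRT20* was at 0.55 to 1.84 CPM and *VIL1*, *CDX1* and *LGALS4* were at or near 0. Markers of leukocytes summed to at most 0.636 CPM, those of endothelium to at most 2.5 CPM and those of fibroblasts other than *COL1A1* to at most 0.938 CPM. *COL1A1* was counted at 32.2 to 98.8 CPM. A list of 15 genes of the G1/S transition had a median, relative to the *ZK3*-WT mean on the log2 scale, of -0.27 to 0.37 in *ZK3*-WT libraries and of 0.93, 1.45 and -0.53 in the *ZK3*-KO libraries. The summed level of the epithelial markers (5449 CPM) and *COL1A1* were highest, and the median of the G1/S list lowest, in *ZK3*-KO replicate 3.

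None of the 9 tested genes of the β-catenin set reached an FDR under 0.05 when edgeR was run on all 6 libraries, where 2.05% of all tested genes passed (0.817% higher and 1.23% lower in *ZK3*-KO cells). *GSK3A* alone had an unadjusted p-value under 0.05, as did 18.4% of all genes, and it alone passed in DESeq2, where 8.2% of all genes did. Without *ZK3*-KO replicate 3, *CTNNB1* and *TCF7* were higher in *ZK3*-KO cells past an FDR of 0.05 and none was lower. These are 2 of 9 genes, where 15.1% of all tested genes passed in either direction, 7.41% in that direction and 7.73% in the other. Unadjusted p-values were under 0.05 for 4 of the 9, 3 higher and 1 lower, against 32.4% of all genes. The median log2 fold change of the 9 genes was -0.00 over the 6 libraries and 0.21 once *ZK3*-KO replicate 3 was left out, against 0.02 and -0.02 over all tested genes. *LEF1* had no read and was not tested. In these bulk libraries, fewer cells with a transcript and less of it per cell cannot be told apart.

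**Figure D1:**
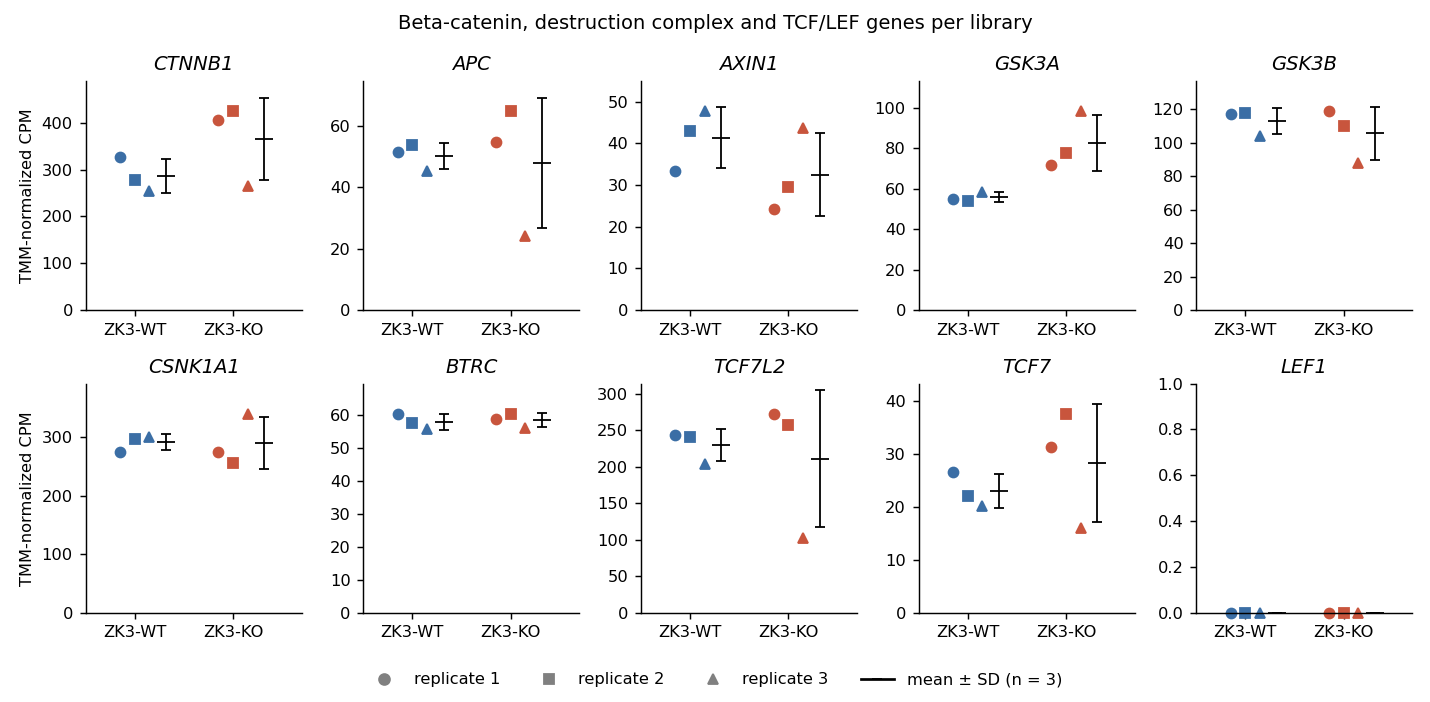
TMM-normalized CPM of each of the 10 genes in every library (linear axes from 0, a scale of its own for each gene); points are libraries, and bars give mean ± SD (n = 3). *GSK3A* is the gene whose *ZK3*-KO libraries all lie above all *ZK3*-WT libraries, and the triangle of *ZK3*-KO replicate 3 lies far below its group for *APC*, *TCF7L2* and *TCF7*.

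Levels of different genes were compared in TPM, which is scaled by transcript length. *CTNNB1* had the highest level, with a median of 187 TPM over the 6 libraries (130 to 262), and it exceeded *TCF7L2* (median 129 TPM, 43.1 to 143) in 6 of 6 libraries. *CSNK1A1* followed at 107 TPM (98.9 to 120). *TCF7L2* was above it in 4 of 6 libraries, so these neighbours did not differ beyond their spread. The ranges of *CSNK1A1*, of *GSK3A* (median 58.3 TPM) and of *GSK3B* (median 30.6 TPM) did not overlap. *GSK3B* was above *BTRC* (median 20.8 TPM) in 6 of 6 libraries. *BTRC*, *AXIN1* (median 20 TPM) and *TCF7* (median 15.3 TPM) overlapped, and neighbours among them exchanged their order between libraries. *APC* was the lowest of the genes with reads, at a median of 10.2 TPM (3.68 to 12.3), below *TCF7* in 6 of 6 libraries. *APC* thus had a lower level per length than every kinase of the set in all libraries, and *AXIN1* had a lower median than each of them.

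*CTNNB1* (NCBI Gene 1499; chromosome 3 of GRCh37, 41236232 to 41301587, forward strand) had 326, 277 and 255 CPM in *ZK3*-WT cells and 406, 425 and 264 CPM in *ZK3*-KO cells. *ZK3*-KO replicates 1 and 2 lay above every *ZK3*-WT library and replicate 3 lay within them. The means were 286 ± 36.6 CPM and 365 ± 88 CPM (SD, n = 3 each), and the log2 fold change was 0.35 (standard error 0.22, FDR 0.437 in edgeR's test). Without *ZK3*-KO replicate 3 it was 0.55 (standard error 0.14, FDR 0.0304 in edgeR's test). In a fit of replicates 1 and 2 alone with the replicate number as a block, it was 0.48 (FDR 0.149 in edgeR's test). That fit called 465 genes in all, against 2858 without *ZK3*-KO replicate 3. In TPM, *ZK3*-KO replicate 3 had the lowest value of all libraries (130, against 158 in the lowest *ZK3*-WT library), so its place within the *ZK3*-WT range depends on the scale. *ULK4*, which overlaps *CTNNB1* on the opposite strand, had 102 to 208 reads per library against 16312 to 29452 of *CTNNB1*.

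Of the scaffolds, *APC* (NCBI Gene 324; chromosome 5, 112043215 to 112181936, forward strand), the tumor suppressor most often mutated in colon cancer, had 51.4, 53.8 and 45.4 CPM in *ZK3*-WT cells and 54.8, 64.9 and 24.1 CPM in *ZK3*-KO cells. *ZK3*-KO replicates 1 and 2 were the highest libraries and replicate 3 the lowest. The log2 fold change was -0.07 (standard error 0.33, FDR 0.941 in edgeR's test) and turned to 0.26 (FDR 0.252) without *ZK3*-KO replicate 3. *AXIN1* (NCBI Gene 8312; chromosome 16, 337440 to 402723, reverse strand) is the scaffold whose amount is usually held to limit the complex. It had 33.4, 42.9 and 47.8 CPM in *ZK3*-WT cells and 24.3, 29.5 and 43.6 CPM in *ZK3*-KO cells. Replicates 1 and 2 of *ZK3*-KO lay below every *ZK3*-WT library, and replicate 3 did not. The log2 fold change was -0.35 (standard error 0.25, FDR 0.501 in edgeR's test), or -0.62 (standard error 0.19, FDR 0.0576) without *ZK3*-KO replicate 3. The value was below 0 in every alternative that was run, and its FDR was above 0.05 in all 11 of them.

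*GSK3A* (NCBI Gene 2931; chromosome 19, 42730377 to 42746777, reverse strand), which encodes GSK3α, separated the genotypes without overlap. It had 55.1, 54 and 58.6 CPM in *ZK3*-WT cells and 71.9, 77.5 and 98.5 CPM in *ZK3*-KO cells, with *ZK3*-KO replicate 3 the highest. The means were 55.9 ± 2.42 CPM and 82.7 ± 14 CPM (SD, n = 3 each). The log2 fold change was 0.56 (standard error 0.16, unadjusted p = 0.00865, FDR 0.131 in edgeR's test). It passed in DESeq2 alone (0.57, adjusted p = 0.0356), and without *ZK3*-KO replicate 3 it was 0.42 (FDR 0.0535 in edgeR's test). FDR values over the 11 alternatives ranged from 0.0356 to 0.444. The *ZK3*-KO libraries of 12.7% of all tested genes lay above all *ZK3*-WT libraries in the same way, and *GSK3A* was 1 such gene among 9. The median over the 205 tested genes within 5 Mb of *GSK3A* was 0.14, and -0.04 without *ZK3*-KO replicate 3. *ZNF526*, which overlaps it on the opposite strand, had 834 to 1278 reads per library against 3465 to 6088 of *GSK3A*.

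Its paralog *GSK3B* (NCBI Gene 2932; chromosome 3, 119540168 to 119813841, reverse strand), which encodes GSK3β, had 117, 118 and 104 CPM in *ZK3*-WT cells and 119, 110 and 88.1 CPM in *ZK3*-KO cells. The groups overlapped, with *ZK3*-KO replicate 3 the lowest library, and the log2 fold change was -0.09 (standard error 0.16, FDR 0.799 in edgeR's test). Leaving out *ZK3*-KO replicate 3 turned it to 0.03. The balance of the paralogs was expressed as the share of *GSK3B* in the summed TPM of both. This share was 37.8%, 39.1% and 34.8% in *ZK3*-WT cells and 33.4%, 29.6% and 20.5% in *ZK3*-KO cells. All *ZK3*-KO libraries lay below all *ZK3*-WT libraries, and *ZK3*-KO replicate 3 was the lowest. The mean difference was -9.42 percentage points (two-sided exact permutation test, p = 0.1), and 0.1 is the smallest p-value that 3 libraries against 3 can give. Without *ZK3*-KO replicate 3 the difference was -5.74 percentage points. The share holds *GSK3A*, which separated the genotypes by itself, so it is no result apart from that gene. The mRNAs of *GSK3B* and *GSK3A* also differ in length (8543 and 2500 bp), and differences of *ZK3*-KO replicate 3 moved with length over all genes. The part of length in the share was not tested.

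*CSNK1A1* (NCBI Gene 1452; chromosome 5, 148872545 to 148931034, reverse strand), the priming kinase, had 275, 297 and 300 CPM in *ZK3*-WT cells and 275, 255 and 340 CPM in *ZK3*-KO cells. *ZK3*-KO replicate 2 was the lowest and replicate 3 the highest library, and the log2 fold change was -0.00 (standard error 0.16, FDR 0.993 in edgeR's test). The pseudogenes *CSNK1A1P1*, *CSNK1A1P2* and *CSNK1A1P3* had at most 5 reads in a library. *BTRC* (NCBI Gene 8945; chromosome 10, 103113790 to 103317078, forward strand), the substrate receptor of the ubiquitin ligase, varied least of the set in CPM. It had 60.5, 57.5 and 55.9 CPM in *ZK3*-WT cells and 58.8, 60.5 and 56.2 CPM in *ZK3*-KO cells. The groups covered nearly the same range, and *ZK3*-KO replicate 3 lay within it, although in TPM that library was the lowest (15.8, against 19.8 to 21.2 in the others). The log2 fold change was 0.01 (standard error 0.13, FDR 0.97 in edgeR's test), and it was -0.07 with library totals and -0.10 on log2(TPM + 1). The coefficient of variation of *BTRC* was 4.03% in *ZK3*-WT and 3.73% in *ZK3*-KO libraries, whereas it was 44.3% for *APC* and 44.6% for *TCF7L2* in *ZK3*-KO libraries.

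**Figure D2:**
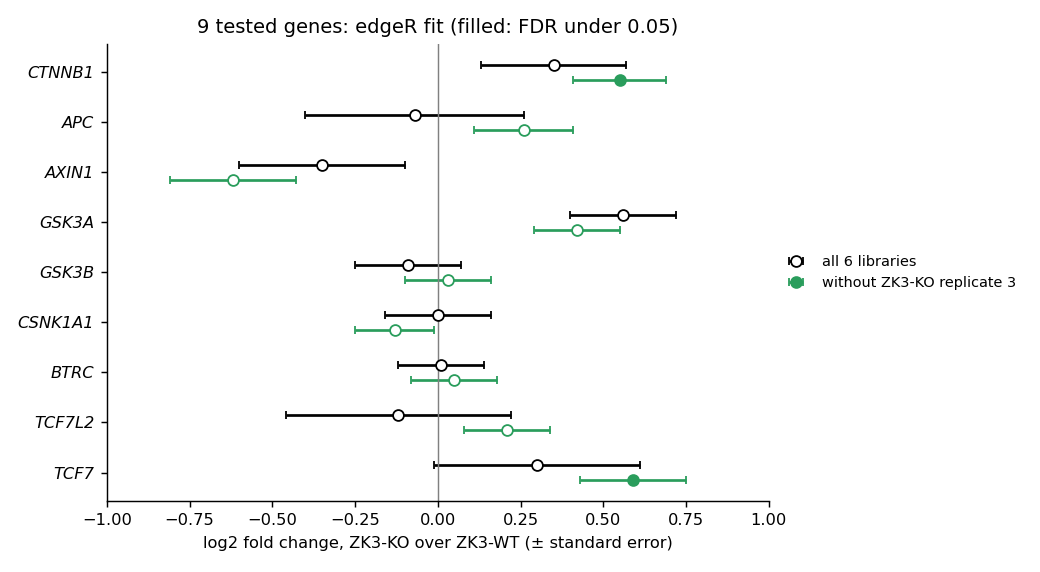
Log2 fold changes of *ZK3*-KO over *ZK3*-WT with their standard errors from edgeR, for the 9 tested genes, with all 6 libraries (black) and without *ZK3*-KO replicate 3 (green); filled points passed an FDR of 0.05. *CTNNB1* (0.55) and *TCF7* (0.59) are filled in the fit without that library, and *APC*, *GSK3B* and *TCF7L2* lie on opposite sides of 0 in the fits.

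Among the nuclear partners of β-catenin, *TCF7L2* (NCBI Gene 6934; chromosome 10, 114710006 to 114927437, forward strand), which encodes TCF4, was the family member with the highest level in every library. It had 244, 241 and 204 CPM in *ZK3*-WT cells and 273, 258 and 103 CPM in *ZK3*-KO cells. *ZK3*-KO replicates 1 and 2 were the highest libraries, and replicate 3 was 2.58-fold below their mean. The log2 fold change was -0.12 (standard error 0.34, FDR 0.884 in edgeR's test) and turned to 0.21 (standard error 0.13, FDR 0.299) without *ZK3*-KO replicate 3.

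*TCF7* (NCBI Gene 6932; chromosome 5, 133450372 to 133487556, forward strand), which encodes TCF1 and is itself a known target of β-catenin/TCF, had 26.6, 22.1 and 20.3 CPM in *ZK3*-WT cells and 31.4, 37.7 and 16 CPM in *ZK3*-KO cells. Its *ZK3*-KO libraries held the 2 highest values and the lowest. The log2 fold change was 0.30 (standard error 0.31, FDR 0.649 in edgeR's test), and 0.59 (standard error 0.16, FDR 0.0418) without *ZK3*-KO replicate 3. With replicates 1 and 2 alone and the replicate number as a block, it was 0.51 (FDR 0.174 in edgeR's test). *SKP1* overlaps *TCF7* on the opposite strand and was counted higher, at 119 to 168 CPM in *ZK3*-WT and 185 to 204 CPM in *ZK3*-KO cells. The strand setting of the counting is not given in the sources used here, and without strand the reads of an overlap cannot be told apart. *SKP1* had 200, 204 and 185 CPM in the *ZK3*-KO libraries, all above the *ZK3*-WT libraries, while *TCF7* was at its lowest in replicate 3. Without *ZK3*-KO replicate 3, the log2 fold change of *SKP1* was 0.56 (FDR 0.0469 in edgeR's test), beside 0.59 for *TCF7*. The part of *SKP1* reads in the counts of *TCF7* was not tested.

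*LEF1* (NCBI Gene 51176; chromosome 4, 108968701 to 109090112, reverse strand) had 0 reads in all 6 libraries, and so had its antisense partner *LEF1-AS1*. A count of 0 allows up to 3 reads, which corresponded to between 0.0428 and 0.0485 CPM per library. *TCF7L1*, which completes the family and often acts as a repressor, was counted at 19.2 to 22.3 CPM in *ZK3*-WT and 20.6 to 23.2 CPM in *ZK3*-KO cells (log2 fold change 0.11, FDR 0.736 in edgeR's test). *TCF7L2* took 79.7%, 82.5% and 80.2% of the summed TPM of the family in *ZK3*-WT cells and 80.2%, 78.1% and 67.6% in *ZK3*-KO cells. *ZK3*-KO replicate 3 was the lowest library, replicate 1 lay within the *ZK3*-WT range and replicate 2 just below it. The mean difference was -5.5 percentage points (two-sided exact permutation test, p = 0.3), which shrank to -1.64 when *ZK3*-KO replicate 3 was left out. In *ZK3*-KO replicate 3 *TCF7L1* made up 20% of the family, against 8.78% to 10.5% in the other libraries.

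**Figure D3:**
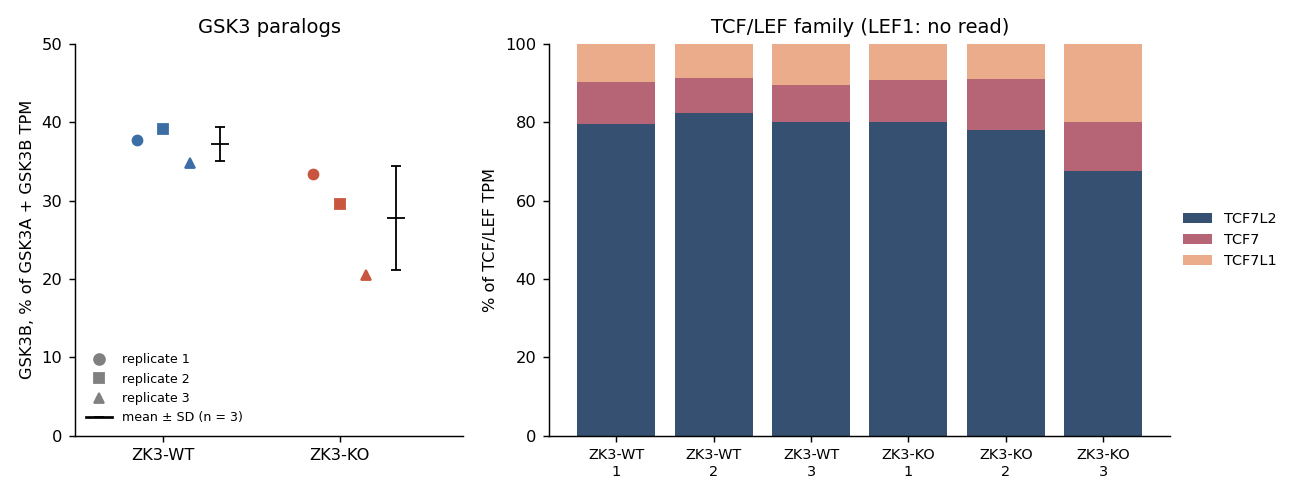
Left, share of *GSK3B* in the summed TPM of *GSK3A* and *GSK3B* in each library (points; bars, mean ± SD, n = 3). Right, make-up of the TCF/LEF family in percent of its summed TPM, a bar for each library. The *GSK3B* share is 33.4% or less in *ZK3*-KO and 34.8% or more in *ZK3*-WT libraries, and *TCF7L2* holds 67.6% in *ZK3*-KO replicate 3 and 78.1% or more in the others.

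The promoter windows of *LEF1* and *TCF7L2* are shown because they belong to the family member without reads and to the one with the highest level. The sequences are RefSeq windows of GRCh38.p14 from 250 bases before to 50 bases after a transcription start, and CG dinucleotides are in capitals. The *LEF1* window (chr4:108166252-108166551, reverse strand) had a GC content of 47% and 9 CG dinucleotides. The first of 3 listed *TCF7L2* windows (chr10:112949997-112950296, forward strand) had 65.7% and 25, against medians of 58.7% and 14 over 35116 promoter windows. The second *TCF7L2* window had 42.7% and 7 and the third 48.7% and 5, so the difference from *LEF1* holds for the first window only. The windows are placed on GRCh38.p14 and the genes on GRCh37. Whether the listed *LEF1* window lies at the main start of that gene was not tested. Its GC content may therefore not be that of the main promoter. A relation of these values to the read counts was not tested.
LEF1 promoter: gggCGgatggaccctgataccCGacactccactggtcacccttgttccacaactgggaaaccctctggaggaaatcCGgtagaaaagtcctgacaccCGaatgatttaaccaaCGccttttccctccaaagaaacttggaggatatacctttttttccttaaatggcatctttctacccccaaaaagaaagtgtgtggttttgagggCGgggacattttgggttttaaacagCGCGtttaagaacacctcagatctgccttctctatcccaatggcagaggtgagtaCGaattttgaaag
TCF7L2 promoter: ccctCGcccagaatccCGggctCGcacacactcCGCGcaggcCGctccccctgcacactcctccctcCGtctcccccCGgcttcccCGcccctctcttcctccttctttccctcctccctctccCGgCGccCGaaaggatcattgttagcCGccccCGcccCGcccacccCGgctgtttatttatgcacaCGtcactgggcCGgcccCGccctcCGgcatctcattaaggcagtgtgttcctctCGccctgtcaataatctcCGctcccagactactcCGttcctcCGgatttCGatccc
Windows were found for 9 of the 10 genes, 14 windows in all. *AXIN1* (78%) and *CTNNB1* (74%) had the highest GC content and 44 and 39 CG dinucleotides. The TCF-type heptamers CTTTGAT and CTTTGTT were searched on both strands. CTTTGAT was in 0 and CTTTGTT in 2 of the 14 windows, which were the second windows of *TCF7* and *TCF7L2*, and 2.62% and 5.2% of all windows hold them. A match is a description of the letters only.

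The genes of the set departed in opposite directions in *ZK3*-KO replicate 3. Against the mean of *ZK3*-KO replicates 1 and 2, log2 CPM in replicate 3 was -1.37 for *TCF7L2*, -1.31 for *APC*, -1.10 for *TCF7*, -0.65 for *CTNNB1*, -0.38 for *GSK3B* and -0.09 for *BTRC*. It was 0.36 for *CSNK1A1*, 0.40 for *GSK3A* and 0.70 for *AXIN1*. Beside these values, the same difference over all genes moved with mRNA length, as implied by the deposited counts and FPKM. Its median was 0.27 for 1544 genes under 1000 bp and -0.47 for 1560 genes of 8000 bp or more. *APC*, the longest of the set at 12106 bp, and *GSK3B* at 8543 bp belong to the latter. *TCF7L2* at 4410 bp lay in the range from 4000 to 6000 bp, whose median was -0.11, and *TCF7* (3791 bp), *CTNNB1* (3746 bp) and *AXIN1* (3874 bp) in the range from 3000 to 4000 bp, whose median was 0.07. *TCF7L2* and *APC* were at the percentiles 5.14 and 5.68 of all genes and *AXIN1* at 82.2. The part of mRNA length, and of the G1/S genes, whose median was also lowest in this library, in these values was not tested.

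**Figure D4:**
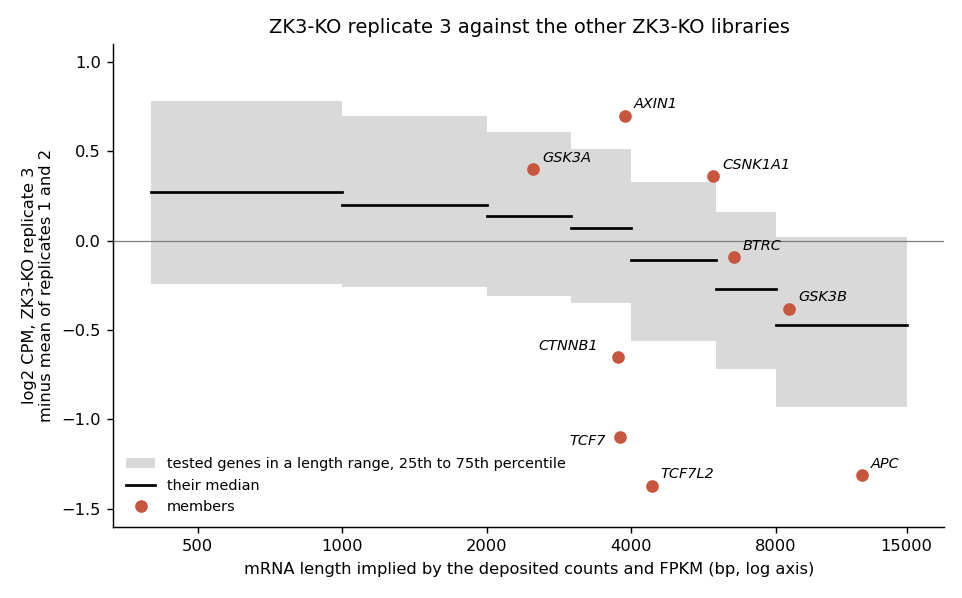
Difference in log2 CPM between *ZK3*-KO replicate 3 and the mean of *ZK3*-KO replicates 1 and 2 (y axis) against mRNA length in bp (log axis); grey, 25th to 75th percentile of the tested genes in each length range, with the median as a black line, and red points for the 9 genes. *TCF7L2*, *TCF7*, *CTNNB1* and *APC* lie under the grey range of their length. *AXIN1* and *CSNK1A1* lie above it, and *GSK3A*, *BTRC* and *GSK3B* within it.

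Other genes of the pathway were read from lists of 74 genes, of which 67 were tested and 5 had no read. In edgeR's test with all 6 libraries, 2 of the 67 passed an FDR of 0.05, both lower in *ZK3*-KO cells (background 2.05%, and 1.23% in that direction). Without *ZK3*-KO replicate 3, 13 passed, 7 of them higher and 6 lower (background 15.1%). The 2 genes that passed with all libraries are targets of β-catenin/TCF. *RNF43*, a ubiquitin ligase that removes WNT receptors, had 117, 177 and 118 CPM in *ZK3*-WT cells and 40.1, 41.2 and 31.4 CPM in *ZK3*-KO cells (log2 fold change -1.87, standard error 0.22, FDR 0.00992 in edgeR's test). *SOX9*, a transcription factor of the crypt base, was counted at 173, 212 and 184 CPM and at 74.1, 59.7 and 66.1 CPM (log2 fold change -1.51, standard error 0.16, FDR 0.00697 in edgeR's test). For both, all *ZK3*-KO libraries lay below all *ZK3*-WT libraries, replicate 3 included, as 13.8% of all genes did, and without that library the log2 fold changes were -1.75 and -1.50. *RNF43* missed the threshold without *ZK3*-KO replicate 1 (FDR 0.0679 in edgeR's test), and *SOX9* without *ZK3*-WT replicate 2 (FDR 0.0562) or replicate 3 (FDR 0.0509). Of the 13 tested targets, 11 had a log2 fold change below 0, with a median of -0.34, and without *ZK3*-KO replicate 3 these were 10 and -0.19. With all libraries, 3 targets had an unadjusted p-value under 0.05 in edgeR's test, DESeq2 called 3, and 3 lay wholly lower in *ZK3*-KO cells. Over all genes these shares were 18.4%, 8.2% and 13.8%. The target list was chosen with results of these libraries known and is no independent evidence of a direction.

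Of 20 tested paralogs, phosphatase subunits and regulators of the complex, 16 were above 0 (median 0.14) and none passed with all libraries in edgeR's test, while 4 had an unadjusted p-value under 0.05 and DESeq2 called 2. The backgrounds of these counts were 18.4% and 8.2%. *AXIN2* is both in this list and in that of the targets, and is counted in each. With all libraries its log2 fold change was -1.01 (FDR 0.342 in edgeR's test). In the fit lacking *ZK3*-KO replicate 3, 12 of the 20 were above 0 (median 0.20), and 4 passed as higher and 1 as lower, against 7.41% and 7.73% of all genes. In that fit the PP2A phosphatase subunits *PPP2R1B* (0.71, FDR 0.0203), *PPP2R5E* (0.70, FDR 0.0107), *PPP2R5C* (0.68, FDR 0.0137) and *PPP2R1A* (0.61, FDR 0.0371) rose in edgeR's test, and *DVL1* (-0.50, FDR 0.0447), which recruits Axin to the receptor, fell. The PP2A subunits *PPP2R5A* (-0.33, FDR 0.13) and *PPP2R5B* (-0.57, FDR 0.125) had values below 0 and did not pass in edgeR's test. With the replicate number as a block and the libraries numbered 3 left out, *PPP2R5E* (FDR 0.0709), *PPP2R5C* (0.0821), *PPP2R1B* (0.118) and *PPP2R1A* (0.145) did not pass in edgeR's test, nor did *DVL1*. That blocked fit called 465 genes in all, against 2858 without *ZK3*-KO replicate 3. In *ZK3*-KO replicate 3 itself, *PPP2R1B* was below all *ZK3*-WT libraries (23.2 CPM, against 25.6 to 33). *DVL1* was above all of them in that library (156 CPM, against 118 to 145). With all libraries, *PPP2R1B* was at 0.44 (FDR 0.453 in edgeR's test) and *DVL1* at -0.19 (FDR 0.733). *PPP2R1A* was higher in every *ZK3*-KO library (236 to 271 CPM, against 145 to 210). *PPP2R5C* had 122, 106 and 103 CPM in *ZK3*-WT cells and 189, 164 and 151 CPM in *ZK3*-KO cells. *PPP2R5E* was counted at 59.8, 67.8 and 62.8 CPM and at 100, 105 and 82.4 CPM. Neither overlapped between the genotypes, and 6 of the 20 genes lay wholly higher in *ZK3*-KO cells in this way, against 12.7% of all genes. Both lie on chromosome 14, as does *CHD8*. The 504 tested genes of that chromosome had a median of 0.51 in the comparison and of 0.36 to 0.42 in each *ZK3*-KO library relative to the *ZK3*-WT mean. The part of this chromosome-wide difference in their values was not tested.

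Of 21 tested nuclear cofactors, 14 were below 0 (median -0.12) and none passed with all libraries, with 1 under an unadjusted p-value of 0.05 in edgeR's test and none called by DESeq2. The shares over all genes, for this list and the next, were 2.05%, 18.4% and 8.2%. In the fit without *ZK3*-KO replicate 3, 7.41% of all genes passed as higher and 7.73% as lower. Without *ZK3*-KO replicate 3, *CHD8* (0.75, FDR 0.00793), a chromatin remodeler that restrains β-catenin, rose in edgeR's test. The coactivator *BCL9L* (-0.91, FDR 0.0135) and the corepressor *TLE2* (-0.55, FDR 0.0377) fell. With the block and without the libraries numbered 3, *CHD8* (FDR 0.0754), *BCL9L* (0.0769) and *TLE2* (0.128) did not pass in edgeR's test. *BCL9L* had 199, 267 and 292 CPM in *ZK3*-WT cells and 133, 136 and 266 CPM in *ZK3*-KO cells, so that *ZK3*-KO replicate 3 lay within the *ZK3*-WT libraries and the others below them. *TLE2* at 38.4 CPM in that library also lay within its *ZK3*-WT range (37.9 to 39.8 CPM). *CHD8* at 107 CPM lay above its own (84.4 to 96.3 CPM). Of 10 genes of ubiquitin transfer and Axin turnover, none passed with all libraries (1 under an unadjusted p-value of 0.05 in edgeR's test, none in DESeq2). Without *ZK3*-KO replicate 3, *SKP1* (0.56, FDR 0.0469) and *TNKS2* (0.47, FDR 0.0477) rose and *SIAH1* (-0.56, FDR 0.0397) fell in edgeR's test. None of these passed with the block and without the libraries numbered 3 (FDR 0.123 for *SIAH1*). *ZK3*-KO replicate 3 itself had the highest *SIAH1* value (23.4 CPM, against 17.2 to 17.8 in *ZK3*-WT cells). It had the lowest *TNKS2* value (64.8 CPM, against 66.2 to 77), whereas its *SKP1* value lay above all *ZK3*-WT libraries. With all libraries, *SIAH1* was at -0.16 (FDR 0.809 in edgeR's test) and *TNKS2* at 0.29 (FDR 0.46). *SKP1* is the adaptor between *BTRC* and the ligase, *TNKS2* encodes a tankyrase that sends Axin to degradation, and *SIAH1* encodes a further ubiquitin ligase for β-catenin. *AXIN2*, *DVL1*, *SKP1* and *TNKS2* were named after their values were seen. Of 4 tested adhesion partners of β-catenin, none passed in either fit of edgeR, and 0 and 2 had an unadjusted p-value under 0.05, against 18.4% and 32.4% of all genes.

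**Figure D5:**
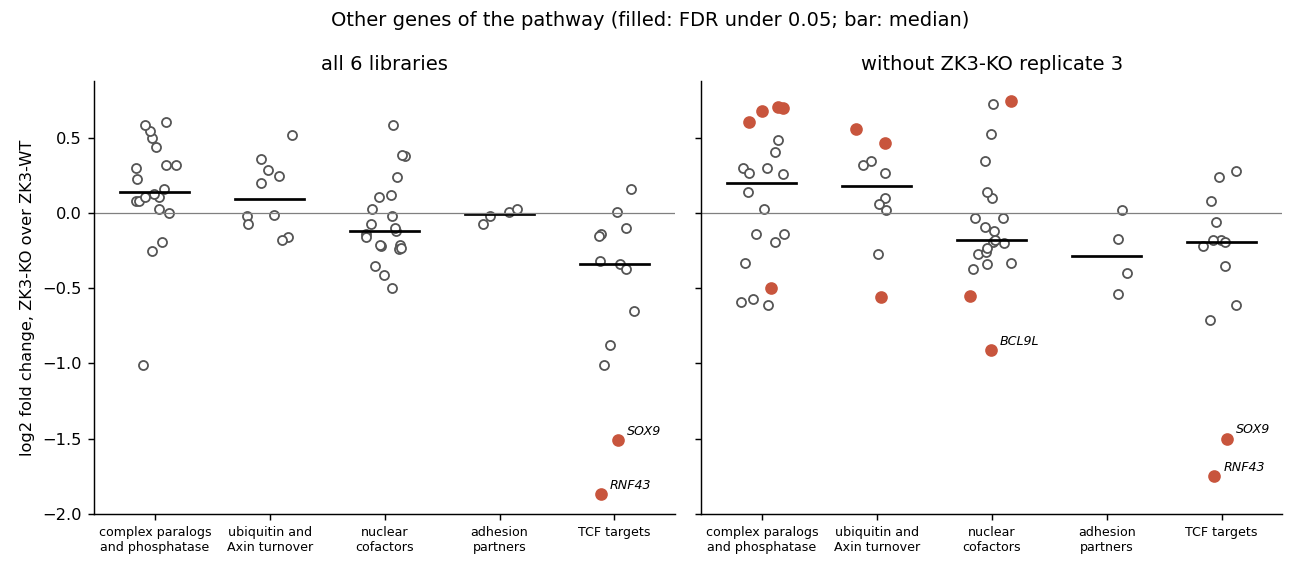
Log2 fold changes of the other tested pathway genes by list, with all 6 libraries (left) and without *ZK3*-KO replicate 3 (right); each point is a gene, filled red at an FDR under 0.05 in edgeR's test, and bars are medians. *RNF43* and *SOX9* are red in both, and 11 further genes are red only on the right.

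The 9 tested genes lie on 5 chromosomes, and the median log2 fold change of the tested genes within 5 Mb of each was between -0.17 (35 genes around *APC*) and 0.14 (around *GSK3A*), and between -0.10 and 0.06 without *ZK3*-KO replicate 3. For *CTNNB1* it was 0.03 over 84 genes and for *TCF7* -0.04 over 63 genes, and without *ZK3*-KO replicate 3 these medians were 0.06 and 0.01, against 0.55 and 0.59 for the genes themselves.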

How the data were processed

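RNA of 3 *ZK3*-WT and 3 *ZK3*-KO cultures was sequenced as paired-end reads of stranded libraries. The authors deposited read counts per gene without normalization, and FPKM and TPM values that the authors scaled by length. The submitters' processing notes name Bowtie2 2.2.5 and hg19; the table lists NCBI Gene identifiers. Columns were assigned by name. Counts were filtered with filterByExpr, normalized with TMM and tested in R 4.3.3 with edgeR 4.0.16 (quasi-likelihood, genotype only, Benjamini-Hochberg, threshold 0.05). Standard errors were derived from the F statistic. DESeq2 1.42.0, limma 3.58.1 on log2(TPM + 1), library totals, no filter, the replicate block and each library left out were alternatives. TPM served for levels between genes and shares, and FPKM for lengths. Scripts were tested on simulated data. No library was a copy of another of its genotype (chi-square per degree of freedom 41.5 or more between replicates). Libraries of unlike genotype were not compared in this way.

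Deviations of same-numbered libraries correlated at 0.441, 0.124 and 0.584 for numbers 1, 2 and 3. Libraries of unlike number ranged from -0.516 to 0.273, and *ZK3*-KO replicate 2 went further with *ZK3*-WT replicate 1 (0.273) than with its own number. What the numbers mark is not given in the sources used here. The block changed no call made with all libraries for the genes named, and the calls made without *ZK3*-KO replicate 3 are given with their blocked values. The p-values measure the spread between cultures. Intervals of a count of 0 cover counting error only. Positions are from GENCODE on GRCh37, promoters from RefSeq on GRCh38.p14. The genes and lists were chosen with earlier results of these data known. The rule names all 10 genes, *TCF7L1*, *ZKSCAN3*, pathway genes past FDR 0.05 and, without *ZK3*-KO replicate 3, the 5 with the largest change in each direction.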

Additional observations from a re-analysis of the deposited data

How the results depend on the processing

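The number of genes past an FDR of 0.05 was 376 with all libraries, 1506 with DESeq2, and between 49 and 2858 when a library was left out (2858 without *ZK3*-KO replicate 3, 158 without *ZK3*-KO replicate 2, 74 without *ZK3*-KO replicate 1, and 67, 49 and 57 without *ZK3*-WT replicates 1, 2 and 3). For the β-catenin set it was 0, with 1 in DESeq2 (*GSK3A*) and 0 to 2 when a library was left out, 2 of them without *ZK3*-KO replicate 3. For the other pathway genes it was 2, with 5 in DESeq2 and 1 to 13 when a library was left out, 13 of them without *ZK3*-KO replicate 3 and 1 without *ZK3*-KO replicate 1, *ZK3*-WT replicate 2 or *ZK3*-WT replicate 3. The cause was not tested. With the replicate number as a block the counts were 461, 0 and 2, and with the block and without the libraries numbered 3 (added after seeing the data) they were 465, 0 and 2. *CTNNB1*, *TCF7* and the 11 pathway genes called without *ZK3*-KO replicate 3 alone did not pass in this last fit, while *RNF43* and *SOX9* did. It has fewer libraries and more terms, and its count over all genes was 465 against 2858. It therefore cannot decide whether the calls made without *ZK3*-KO replicate 3 hold. Among the genes named, the block changed no other call.

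Log2 fold changes that changed sign when a library was left out ranged from -0.35 to 0.26 for *APC*, -0.18 to 0.03 for *GSK3B*, -0.13 to 0.08 for *CSNK1A1*, -0.01 to 0.05 for *BTRC*, -0.34 to 0.21 for *TCF7L2*, -0.29 to 0.09 for *ZKSCAN3* and -0.56 to 0.02 for *SIAH1*. *BTRC* was also reversed with library totals (-0.07) and on log2(TPM + 1) (-0.10), where the median of all genes shifted by -0.10, and *APC* (0.19) and *TCF7L2* (0.14) with the block and without the libraries numbered 3. *RNF43* lost its call without *ZK3*-KO replicate 1 (FDR 0.0679 in edgeR's test), and *SOX9* without *ZK3*-WT replicate 2 (0.0562) or replicate 3 (0.0509). The *GSK3B* share differed by -12.2 to -5.74 and the *TCF7L2* share by -7.96 to -1.64 percentage points when a library was left out. At 989 or more reads per library for every tested gene of the set, depth limits only *LEF1*.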
